A study of Mus musculus with 3 samples.

Results

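Genes of the transforming growth factor beta (TGF-beta) pathway were followed through the cells of the embryonic mouse kidney. The set held 7 genes: the ligand genes Tgfb1, Tgfb2 and Tgfb3, the receptor genes Tgfbr1, Tgfbr2 and Tgfbr3, and Tgfbi, which codes for a secreted matrix protein named for its induction by TGF-beta. They were taken by name, with earlier results of these data known. All 7 were present in each of the 3 raw count tables, among 17864 genes that the tables share. All 7 also passed the filter on low counts, so each was tested.

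TGF-beta ligands are secreted in a latent form, bound to their own propeptide and often to matrix, and must be released before they can act. The released ligand binds a type II receptor, the product of Tgfbr2, which brings in and phosphorylates the type I receptor, the product of Tgfbr1. That receptor phosphorylates SMAD2 and SMAD3, which enter the nucleus with SMAD4. The product of Tgfbr3, betaglycan, is a co-receptor with a short cytoplasmic tail that presents ligand, above all TGF-beta 2, to the type II receptor. In the kidney the pathway is best known for its part in fibrosis, and in development for roles in vessels and in the tissue around epithelia.

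The samples were wild-type kidneys of E14.5 embryos, in the middle of nephron formation, from mice of a mixed background, mostly CD-1 and 129. Cells were measured on 3 platforms with 1 library each: Drop-seq and 10x Chromium, which capture cells in droplets, and Fluidigm C1, which captures them in chambers of a chip. No group was treated or mutant, and how many embryos went into a library was not stated. Drop-seq and 10x values are counts of unique molecular identifiers (UMIs), and C1 values are read counts. After filtering, 1964 Drop-seq, 2130 10x and 883 C1 cells remained, with medians of 7060 UMIs, 7369 UMIs and 166712 reads per cell, and no cell barcode was shared between libraries.

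Cells were clustered in each library and clusters were called stroma-like, endothelium-like and so on from marker lists. The suffix is left out below. In Drop-seq, 10x and C1 the stroma held 437, 822 and 261 cells, the endothelium 102, 368 and 78, and the cap mesenchyme (the nephron progenitors) 588, 200 and 321. The nephron epithelium formed from those progenitors held 502, 370 and 137 cells, and the ureteric epithelium, the branching collecting duct tree, 175, 153 and 72. Class membership moved with the settings. At clustering resolution 0.6, at 1.6 and without doublet removal, C1 cap mesenchyme held 377, 222 and 281 cells. C1 nephron epithelium held 72, 214 and 188 cells in the same order. The 10x endothelium held 271 cells at resolution 0.6. All 12 endothelial markers were detected in the endothelium of each library, at a summed 2858 to 5638 counts per 1000000 counts (CPM), against 67.6 to 278 CPM in the other 4 classes. All 8 stromal markers were detected in the stroma, at a summed 2754 to 3979 CPM, against 57.2 to 846 CPM in the other 4 classes, the highest of these in C1 cap mesenchyme. The endothelial and stromal lists also served to name the clusters, so these sums describe the classes and do not test their names. The 7 erythroid markers summed to 1692 to 5688 CPM in the 5 classes of Drop-seq and 21.9 to 664 CPM in those of 10x. In C1 they summed to 1436 CPM in nephron epithelium, where a cluster of 65 cells was led by the embryonic haemoglobin genes Hbb-y and Hba-x, and to 5.41 to 32.6 CPM in the other 4 classes. Their part in the results was not tested. A C1 cap mesenchyme cluster of 140 cells had none of its own markers among its leading 10 genes.

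A CPM value relates the counts of a gene to all counts of the shared genes in the summed cells of a class, and the intervals are 95% exact Poisson intervals that cover counting error only. In C1, where reads were counted, they are too narrow even for that, so whether C1 intervals meet is a description. Class differences were tested with edgeR's quasi-likelihood test on these sums with the library as a block, so that the 3 libraries, each on another platform, stand as replicates. Benjamini-Hochberg adjustment ran over all genes tested, and called means an adjusted p below 0.05. Each class was set against the mean of the other 4, and the number after ± is a standard error. Clusters were built from other genes of the same cells, and the 7 genes served neither for clustering nor for naming. They and the pathway lists named further below were barred from clustering beforehand. Below, all genes means the genes tested, which leave out every variable or marker gene used to cluster or name cells. Shares over all genes thus lack many genes that vary between cells, while the 7 genes and the lists were kept whatever their variation. Such shares are not a matched background, and the 7 genes and the lists were chosen with earlier results of these data known.

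The 7 genes lie on 7 chromosomes of GRCm38 in the GENCODE vM21 annotation. Tgfb1 lies on the plus strand of chromosome 7 at 25687002 to 25705077, Tgfb2 on the minus strand of chromosome 1 at 186622792 to 186705989, and Tgfb3 on the minus strand of chromosome 12 at 86056745 to 86079041. Tgfbr1 lies on the plus strand of chromosome 4 at 47353222 to 47414931, Tgfbr2 on the minus strand of chromosome 9 at 116084293 to 116175360, and Tgfbr3 on the minus strand of chromosome 5 at 107106570 to 107289629. Tgfbi lies on the plus strand of chromosome 13 at 56609523 to 56639562. Exons of other annotated genes overlap 124 of 5791 exonic bases of Tgfb2 (Gm29491) and 420 of 3383 of Tgfb3 (Gm37804 and Gm48008) on the opposite strand, and 297 of 6545 of Tgfbr3 (Gm43422) on the same strand. How reads in these stretches were assigned was not stated, so those counts carry that uncertainty. No other gene's exon overlaps those of Tgfb1, Tgfbr1, Tgfbr2 or Tgfbi.

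The 250 bases before the RefSeq start of 4 of these genes are shown because they stand for the pair highest in endothelium (Tgfb1 and Tgfbr2) and a pair highest in stroma (Tgfb2 and Tgfbi). They come from RefSeq on GRCm38.p6, which had an entry for 5 of the 7 genes and none used here for Tgfb3 and Tgfbr3. Capitals mark any of 6 motifs on either strand: the Sp1 box GGGCGG, the TATA box TATAAA, the cAMP response element TGACGTCA, the AP-1 site TGANTCA, the SMAD element CAGAC and the ETS core CGGAAG. The 4 windows are chr7:25686752-25687001 on the plus strand (Tgfb1), chr9:116175364-116175613 on the minus strand (Tgfbr2), chr1:186705990-186706239 on the minus strand (Tgfb2) and chr13:56609336-56609585 on the plus strand (Tgfbi). For Tgfbi and Tgfbr2 the window does not adjoin the GENCODE start given above. The Tgfbi window runs past that start at 56609523, so its last bases lie inside the gene as GENCODE annotates it. The Tgfbr2 window begins a few bases beyond the GENCODE boundary at 116175360.
Tgfb1: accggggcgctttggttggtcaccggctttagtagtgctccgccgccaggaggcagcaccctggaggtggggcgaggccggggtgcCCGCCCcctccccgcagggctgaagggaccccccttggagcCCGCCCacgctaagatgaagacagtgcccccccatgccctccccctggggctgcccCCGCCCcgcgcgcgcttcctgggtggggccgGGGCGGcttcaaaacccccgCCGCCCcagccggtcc
Tgfbr2: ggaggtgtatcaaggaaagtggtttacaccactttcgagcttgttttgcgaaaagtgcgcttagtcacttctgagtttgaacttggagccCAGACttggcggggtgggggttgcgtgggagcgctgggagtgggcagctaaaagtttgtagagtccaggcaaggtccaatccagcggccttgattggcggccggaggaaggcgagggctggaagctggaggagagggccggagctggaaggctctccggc
Tgfb2: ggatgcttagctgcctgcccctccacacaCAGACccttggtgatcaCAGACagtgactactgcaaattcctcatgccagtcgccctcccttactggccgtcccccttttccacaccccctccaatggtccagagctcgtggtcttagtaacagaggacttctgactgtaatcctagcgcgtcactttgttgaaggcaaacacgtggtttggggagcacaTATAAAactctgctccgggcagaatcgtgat
Tgfbi: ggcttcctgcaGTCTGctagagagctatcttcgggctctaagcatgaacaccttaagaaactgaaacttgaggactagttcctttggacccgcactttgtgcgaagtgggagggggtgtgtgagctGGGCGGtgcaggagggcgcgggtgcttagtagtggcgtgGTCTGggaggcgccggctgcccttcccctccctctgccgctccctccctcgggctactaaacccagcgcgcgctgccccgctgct

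The Tgfb1 window held 5 matches to the Sp1 box, at a GC content of 75.2% against a median of 52.4% over all 32851 RefSeq windows, 32.7% of which hold that motif. The Tgfbr2 window held 1 match to the SMAD element. The Tgfb2 window held 1 match to the TATA box, found in 12.4% of all windows, and 2 to the SMAD element, found in 42.2%. The Tgfbi window held 1 match to the Sp1 box and 2 to the SMAD element. None of the 4 windows held the cAMP response element, the AP-1 site or the ETS core, which were found in 1.55%, 6.75% and 13.6% of all windows. No motif was common to all 4 windows, and a match or its lack describes letters only.

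Over all 5 classes jointly, 6 of the 7 genes differed among classes, and 37.7% of all 9400 genes tested did. Tgfbr1 was the exception, with an adjusted p of 0.0517. The other adjusted p-values were 5.62e-04 for Tgfb1, 1.11e-05 for Tgfb2, 6.72e-05 for Tgfb3, 2.52e-07 for Tgfbr2, 5.65e-04 for Tgfbr3 and 0.00283 for Tgfbi. Without 10x the joint adjusted p was 0.119 for Tgfb1 and 0.0666 for Tgfbi, without Drop-seq it was 0.148 for Tgfbi, and without C1 it was 0.00777 for Tgfbr1. Tgfbr1 was also called with DESeq2 (0.0499) and at clustering resolution 0.6 (0.0273), and without the replicate block the adjusted p was 0.0574 for Tgfb1 and 0.273 for Tgfbr3. Over the 10 pairs of classes, 37 of the 70 differences of the 7 genes were called (52.9%), and 14% of those of all genes were.

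**Figure D1:**
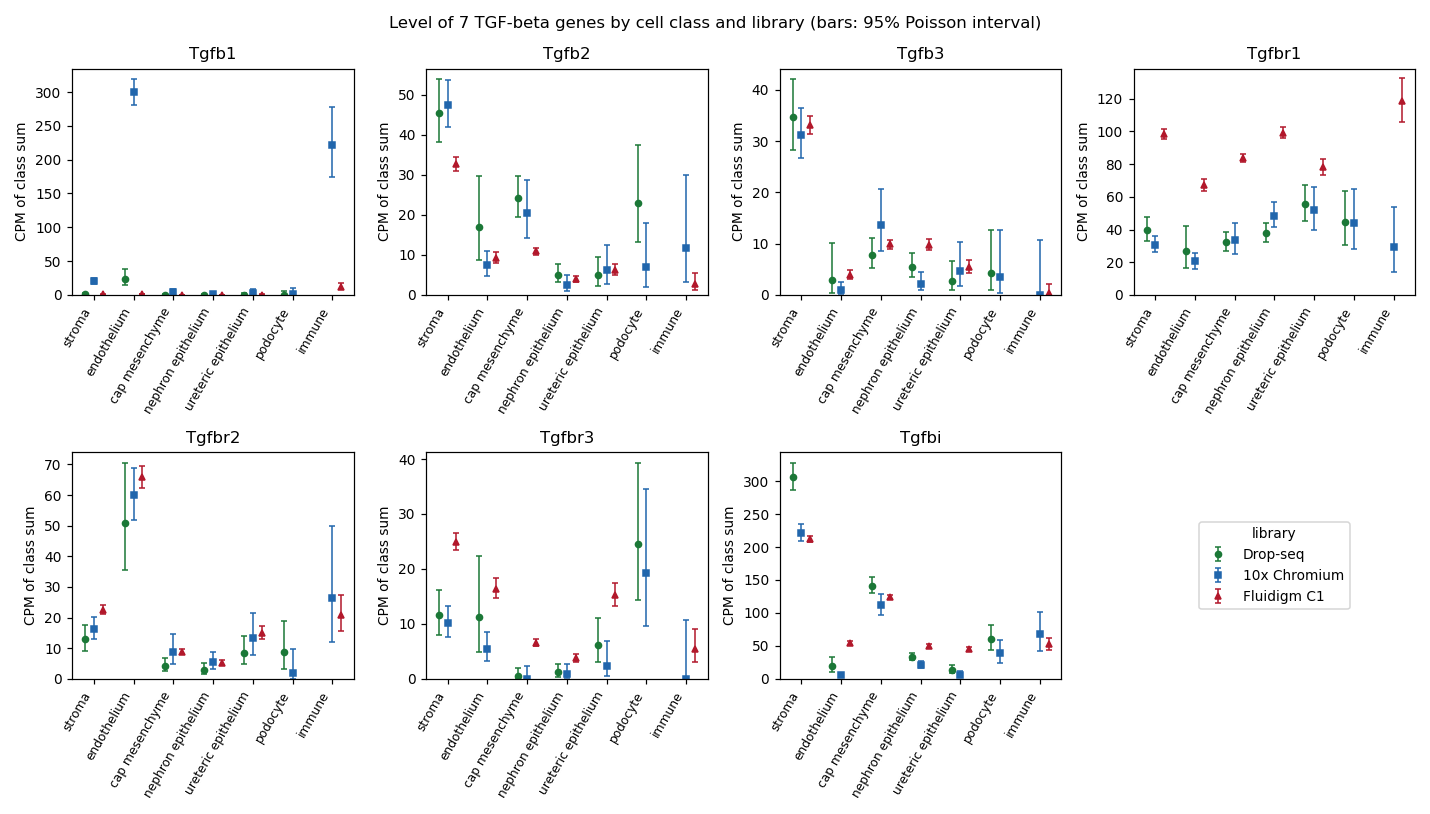
Level of each gene in CPM (y axis, from 0, with its own scale per panel) by cell class (x axis) in Drop-seq (circles), 10x (squares) and C1 (triangles), with 95% Poisson intervals. Tgfb2, Tgfb3 and Tgfbi stand highest of the 5 tested classes in stroma and Tgfbr2 in endothelium in every library, while Tgfb1 reaches 300 CPM in 10x endothelium and 24.0 and 1.13 CPM in Drop-seq and C1 endothelium.

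Tgfb1, the ligand best known from blood, immune and endothelial cells, was highest of the 5 classes in endothelium in all 3 libraries. Its level there was 24.0 CPM in Drop-seq (interval 13.99 to 38.4, 17 UMIs), 300 CPM in 10x (282 to 319, 1011 UMIs) and 1.13 CPM in C1 (0.710 to 1.72, 22 reads). Stroma came next, with 1.02, 20.4 and 0.593 CPM in the same order, so within each library the intervals of endothelium and stroma did not meet in Drop-seq and 10x and overlapped in C1. Cap mesenchyme had 0, 4.35 and 0.161 CPM, nephron epithelium 0.456, 1.56 and 0.157 CPM, and ureteric epithelium 0, 3.13 and 0.215 CPM. With 3 UMIs in place of 0 in the lower class, the 24.0 CPM of Drop-seq endothelium was 30.7-fold above cap mesenchyme and 14.3-fold above ureteric epithelium. These folds leave out the interval of the endothelial value itself.

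Against the mean of the other classes, Tgfb1 was higher in endothelium by 5.15 ± 0.553 on the log2 scale (adjusted p = 9.51e-05, higher in 3 of 3 libraries). It was also called higher in endothelium than in each of the other 4 classes, with adjusted p from 0.00164 to 0.0103. No pair among the 4 other classes was called for Tgfb1. In stroma the difference from the mean of the others was 0.95 ± 0.639 (adjusted p = 0.368), and without C1 it was 1.08 (adjusted p = 0.0145). The immune marker list, 13 genes of another possible source of Tgfb1, summed to 14.1, 20.8 and 13.3 CPM in Drop-seq, 10x and C1 endothelium, with 7, 6 and 3 of its genes at 0, against 5.05 to 38.4 CPM in the other classes, the highest in 10x ureteric epithelium. Its part in the result was not tested.

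The level of Tgfb1 also set the libraries apart. Over all kept cells it was counted 25 times in Drop-seq, 1229 times in 10x and 94 times in C1, which is 1.70, 75.4 and 0.573 CPM. Over the summed 5 classes, 10x stood 47.6-fold above the higher of the other libraries, the third largest such ratio among 3103 genes with 50 CPM or more in 10x. For Tgfbi the same ratio was 0.825, rank 1329. Platform, library and the embryos used cannot be told apart here, and the cause was not tested. In C1 the endothelial reads came from cells of 1 of 2 name groups: 22 reads in 39 cells named HT and 0 in 39 cells named E14, labels whose meaning the submitters do not explain.

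At 4000 UMIs per cell, 61.2% of 10x endothelial cells held a Tgfb1 UMI (205 of 335, exact binomial interval 55.7 to 66.4), and 83.4% did before thinning at a median depth of 8902 UMIs. No class is known to lack these genes outright, so a class with a low share at the fixed depth stands beside each value. For Tgfb1 this was nephron epithelium, with 0 of 337 thinned cells in 10x and 1.08% before thinning at a median of 8845 UMIs. Drop-seq gave 7.84% of thinned endothelial cells (8 of 102) and 0 of 498 in nephron epithelium. Among cells outside the 5 classes, the 77 immune cells of 10x held 222 CPM, 63.6% of the 33 deep enough for thinning carrying the gene, and the 14 immune cells of C1 held 12.0 CPM.

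Tgfb2, the ligand whose loss in mice is known to cause urogenital defects, was highest of the 5 tested classes in stroma in all 3 libraries. Outside these classes, 15 cells of 10x that took no class name held 300.7 CPM and entered no test. Stroma held 45.5 CPM in Drop-seq (38.1 to 53.9), 47.5 CPM in 10x (41.9 to 53.8) and 32.6 CPM in C1 (30.9 to 34.4). Cap mesenchyme followed with 24.2, 20.5 and 10.8 CPM, and endothelium had 16.9, 7.41 and 9.17 CPM. Ureteric epithelium had 5.03, 6.27 and 6.16 CPM, and nephron epithelium was lowest with 5.02, 2.49 and 3.96 CPM. The stromal interval lay above those of the other 4 classes in every library, with the C1 intervals too narrow.

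Stroma stood 2.28 ± 0.222 above the mean of the other classes for Tgfb2 (adjusted p = 1.25e-05), and was called higher than each of the 4 others, by 1.19 over cap mesenchyme (adjusted p = 0.0178) up to 3.31 over nephron epithelium (2.14e-05). Below stroma, cap mesenchyme and endothelium were not called apart (endothelium minus cap mesenchyme -0.70, adjusted p = 0.196), nor were endothelium and ureteric epithelium (0.84, 0.143), nor nephron and ureteric epithelium (-0.57, 0.338). Tgfb2 was called lower in nephron epithelium against the mean of the others (-1.85 ± 0.294, adjusted p = 7.45e-04) and in ureteric epithelium (-1.14 ± 0.300, 0.0182). Without Drop-seq the ureteric value was -0.90 (adjusted p = 0.252) and without 10x -1.15 (0.0765). At resolution 0.6 it was -1.06 (0.0848) and without the replicate block -1.26 (0.0812). In cap mesenchyme it was 0.79 ± 0.252 (adjusted p = 0.062), and without C1 it was 1.20 (9.55e-04).

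Tgfb3, the third ligand, known for its role in palate fusion, followed the same order at its top. Stroma held 34.6 CPM in Drop-seq (28.2 to 42.0), 31.3 CPM in 10x (26.7 to 36.4) and 33.1 CPM in C1 (31.4 to 35.0). Cap mesenchyme had 7.81, 13.7 and 9.84 CPM, nephron epithelium 5.48, 2.18 and 9.75 CPM, and ureteric epithelium 2.79, 4.70 and 5.38 CPM. Endothelium had 2.82, 0.890 and 3.91 CPM, resting on 2 UMIs in Drop-seq and 3 UMIs in 10x. No interval of the other 4 classes reached that of stroma in any library, with the C1 intervals too narrow.

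For Tgfb3, stroma stood 2.70 ± 0.295 above the mean of the other classes (adjusted p = 3.04e-05) and was called higher than each of the 4, by 1.68 over cap mesenchyme (adjusted p = 0.0136) up to 3.65 over endothelium (1.98e-04). Endothelium was called lower than the mean of the others (-1.87 ± 0.438, adjusted p = 0.00619). The difference was as large but not called without Drop-seq (-1.98, adjusted p = 0.0556) and without the replicate block (-1.84, 0.0591). Among the 4 classes below stroma only endothelium and cap mesenchyme were called apart (-1.98, adjusted p = 0.0154). At 4000 UMIs per cell, 10.1% of Drop-seq and 11.4% of 10x stromal cells held a Tgfb3 UMI, against 1.96% and 0 of 335 in endothelium. Before thinning the shares were 16.7% and 16.3% in stroma, at medians of 6583 and 6440 UMIs, and 1.96% and 0.543% in endothelium, at 6910 and 8902.

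Tgfbr1, the type I receptor, was spread over all 5 classes. In Drop-seq it ran from 26.8 CPM in endothelium to 55.3 CPM in ureteric epithelium, in 10x from 20.5 to 51.7 CPM in the same 2 classes, and in C1 from 67.3 CPM in endothelium to 99.2 CPM in nephron epithelium. Stroma held 39.7, 30.7 and 98.5 CPM and cap mesenchyme 32.3, 33.5 and 83.8 CPM in Drop-seq, 10x and C1. Endothelium was thus the lowest of the 5 in each library, by 0.54 ± 0.164 below the mean of the others on the log2 scale (-0.54, adjusted p = 0.0277). The value was -0.58 without Drop-seq (adjusted p = 0.123) and -0.42 without 10x (0.229), -0.47 at resolution 1.6 (0.0684) and -0.49 without the replicate block (0.742), so the direction stayed and the call was lost in these 4 settings.

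Only 2 pairs of classes were called for Tgfbr1, endothelium against nephron epithelium (-0.69, adjusted p = 0.0278) and against ureteric epithelium (-0.69, 0.0324). In ureteric epithelium it stood 0.32 ± 0.152 above the mean of the others (adjusted p = 0.181, 95% interval -0.00 to 0.64), and without C1 0.61 (0.0134). Within ureteric epithelium, the small trunk clusters held 149 CPM in Drop-seq (16 cells, 55 UMIs) and 110 CPM in 10x (36 cells, 24 UMIs), and the tip clusters 31.0 CPM (159 cells) and 39.7 CPM (117 cells). In C1 all 72 ureteric cells formed 1 trunk-named cluster at 78.2 CPM. These cluster values are a description and were not tested.

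Tgfbr2, the type II receptor that binds the ligand first, was an endothelial gene with a like level in all 3 libraries. Endothelium held 50.8 CPM in Drop-seq (35.6 to 70.4), 59.9 CPM in 10x (51.9 to 68.8) and 65.9 CPM in C1 (62.4 to 69.6). Stroma followed with 12.9, 16.3 and 22.5 CPM and ureteric epithelium with 8.38, 13.3 and 14.9 CPM. Cap mesenchyme had 4.17, 8.70 and 8.83 CPM and nephron epithelium 2.97, 5.60 and 5.16 CPM. The order of the 5 classes was the same in the 3 libraries, and the endothelial interval met none of the other 4, with the C1 intervals too narrow.

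For Tgfbr2, endothelium stood 2.81 ± 0.158 above the mean of the other classes (adjusted p = 1.95e-08) and was called higher than each of the 4, from 1.90 over stroma (stroma minus endothelium -1.90, adjusted p = 5.31e-05) to 3.79 over nephron epithelium (9.22e-07). The next neighbours, stroma and ureteric epithelium, were not called apart (0.51, adjusted p = 0.162), and neither were ureteric epithelium and cap mesenchyme (cap mesenchyme minus ureteric epithelium -0.75, 0.0529) or cap mesenchyme and nephron epithelium (0.63, 0.105). Nephron epithelium was lower than the mean of the others (-1.92 ± 0.207, adjusted p = 3.92e-05). Cap mesenchyme was lower as well (-1.13 ± 0.200, adjusted p = 0.00241). Its difference was of like size but not called without Drop-seq (-1.03, adjusted p = 0.106) and without the replicate block (-1.09, 0.301).

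Tgfbr3, the co-receptor betaglycan, was low in number and highest of the 5 classes in stroma. Stroma held 11.5 CPM in Drop-seq (34 UMIs), 10.1 CPM in 10x (54 UMIs) and 25.0 CPM in C1 (1012 reads), and endothelium 11.3, 5.34 and 16.4 CPM. Ureteric epithelium had 6.15, 2.35 and 15.3 CPM, nephron epithelium 1.14, 0.934 and 3.77 CPM, and cap mesenchyme 0.521, 0 and 6.59 CPM. With 3 UMIs in place of 0 in 10x cap mesenchyme, the 10.1 CPM of 10x stroma was 5.42-fold higher, its own interval left out. Podocytes, the filter cells of the glomerulus, formed a class in Drop-seq and 10x only and were not in the tests. They held 24.5 CPM (14.3 to 39.2, 17 UMIs) and 19.3 CPM (9.62 to 34.5, 11 UMIs), and their intervals overlapped those of stroma.

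For Tgfbr3, stroma stood 1.90 ± 0.349 above the mean of the other classes (adjusted p = 0.00167) and endothelium 1.28 ± 0.398 above it (0.0301). Nephron epithelium was lower (-1.97 ± 0.461, adjusted p = 0.0116) and cap mesenchyme was lower (-1.69 ± 0.453, 0.0292). Stroma, endothelium and ureteric epithelium were not called apart from each other, with adjusted p from 0.141 to 0.565. Without Drop-seq the adjusted p was 0.239 for endothelium, 0.362 for cap mesenchyme and 0.121 for nephron epithelium. Without 10x it was 0.132 for endothelium and 0.143 for cap mesenchyme, and without C1 it was 0.0721 for nephron epithelium. Without the replicate block none of the 4 was called, with adjusted p of 0.324 for stroma, 0.505 for endothelium, 0.815 for cap mesenchyme and 0.549 for nephron epithelium. At resolution 1.6 it was 0.0564 for endothelium and 0.0883 for cap mesenchyme.

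**Figure D2:**
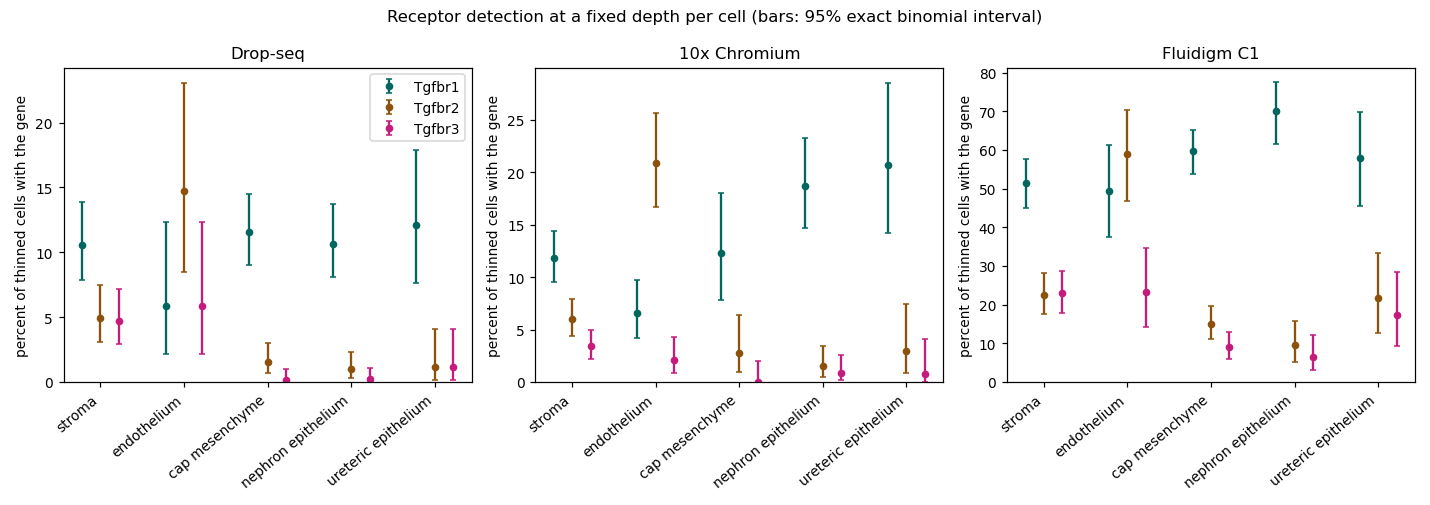
Percent of cells with at least 1 count of Tgfbr1, Tgfbr2 or Tgfbr3 (y axis, from 0, with its own scale per panel) by class (x axis), after thinning each cell to 4000 UMIs (Drop-seq and 10x) or 50000 reads (C1), with 95% exact binomial intervals. Tgfbr2 peaks in endothelium at 14.7%, 20.9% and 58.9% in Drop-seq, 10x and C1, while the Tgfbr1 share in endothelium is the lowest of the 5 classes in each library.

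At a fixed depth, Tgfbr2 was found in 14.7% of Drop-seq endothelial cells (15 of 102), 20.9% of 10x (70 of 335) and 58.9% of C1 (43 of 73). The lowest class was nephron epithelium, with 5 of 498 cells, 5 of 337 (1.48%) and 13 of 137 (9.49%). Before thinning, endothelium had 27.5%, 38.9% and 60.3% and nephron epithelium 2.59%, 4.32% and 19.7%, at medians of 6910 UMIs, 8902 UMIs and 209362 reads in endothelium and 8168 UMIs, 8845 UMIs and 214702 reads in nephron epithelium. Unthinned cap mesenchyme had a slightly lower share than nephron epithelium in Drop-seq (14 of 588 cells) and C1 (62 of 321). Counts of both Tgfbr1 and Tgfbr2 in the same unthinned cell were seen in 5 of 102, 28 of 368 and 32 of 78 endothelial cells, or 4.90%, 7.61% and 41.0%. In stroma they were seen in 11 of 437, 13 of 822 and 49 of 261 cells, or 2.52%, 1.58% and 18.8%. The shares in ureteric epithelium were 1.14%, 3.27% and 18.1%. Tgfbr1 was counted in 17, 62 and 46 endothelial and 93, 148 and 161 stromal cells. Tgfbr2 was counted in 28, 143 and 47 endothelial and 36, 80 and 79 stromal cells. Whether the joint shares differ from those that the 2 genes would give independently was not tested. A cell without a count may still hold the transcript at these depths.

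Tgfbi, the matrix protein that binds integrins and collagen, was high in stroma and, at a lower level, in cap mesenchyme. Stroma held 307 CPM in Drop-seq (287 to 327), 222 CPM in 10x (209 to 235) and 213 CPM in C1 (208 to 217). Cap mesenchyme held 141, 112 and 124 CPM. Nephron epithelium had 33.6, 21.2 and 49.7 CPM, endothelium 19.8, 5.93 and 54.0 CPM, and ureteric epithelium 13.97, 6.27 and 45.2 CPM. The spread between highest and lowest class was narrower in C1 than in the droplet libraries, a difference that was not tested.

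For Tgfbi, stroma stood 2.69 ± 0.384 above the mean of the other classes (adjusted p = 0.00183), and 2.57 above it without Drop-seq (adjusted p = 0.0899). Stroma was called higher than endothelium, nephron epithelium and ureteric epithelium, by 3.32, 2.92 and 3.59 (adjusted p = 0.00734, 0.00945 and 0.00517). The step from stroma to cap mesenchyme was 0.95 (adjusted p = 0.292). Cap mesenchyme was itself called higher than endothelium (endothelium minus cap mesenchyme -2.37, adjusted p = 0.031), nephron epithelium (1.98, 0.047) and ureteric epithelium (2.64, 0.02).

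Set against the mean of the others, Tgfbi in cap mesenchyme was 1.51 ± 0.410 (adjusted p = 0.0539), in endothelium -1.45 ± 0.510 (0.0734), in ureteric epithelium -1.79 ± 0.517 (0.0507) and in nephron epithelium -0.96 ± 0.463 (0.266). Without C1 these were 2.16, -2.35, -2.53 and -0.69 (adjusted p = 2.02e-09, 1.68e-07, 7.70e-08 and 0.0086). The calls in cap mesenchyme, endothelium and ureteric epithelium were also made with DESeq2 (adjusted p = 0.00762, 0.00745 and 7.65e-04) and with no doublet removed (0.0223, 0.0471 and 0.0284), and that in cap mesenchyme at resolution 1.6 (0.0384). The stromal marker list summed to 744, 629 and 846 CPM in Drop-seq, 10x and C1 cap mesenchyme, with none of its 8 genes at 0, against 2804, 2754 and 3979 CPM in stroma. Its part in the Tgfbi level of cap mesenchyme was not tested. Among Drop-seq cap mesenchyme clusters, Tgfbi was highest, at 224 CPM, in the cluster led by Cited1 and lowest, at 95.7 CPM, in the cluster with Tmem100 and Wnt4 among its leading genes, and Tgfb2 had 39.8 and 14.99 CPM in the same 2 clusters. Across C1 cap mesenchyme clusters Tgfbi ran from 105 to 148 CPM and Tgfb2 from 3.15 to 16.3 CPM. There both were highest in the same cluster but lowest in different ones. These cluster values were not tested.

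**Figure D3:**
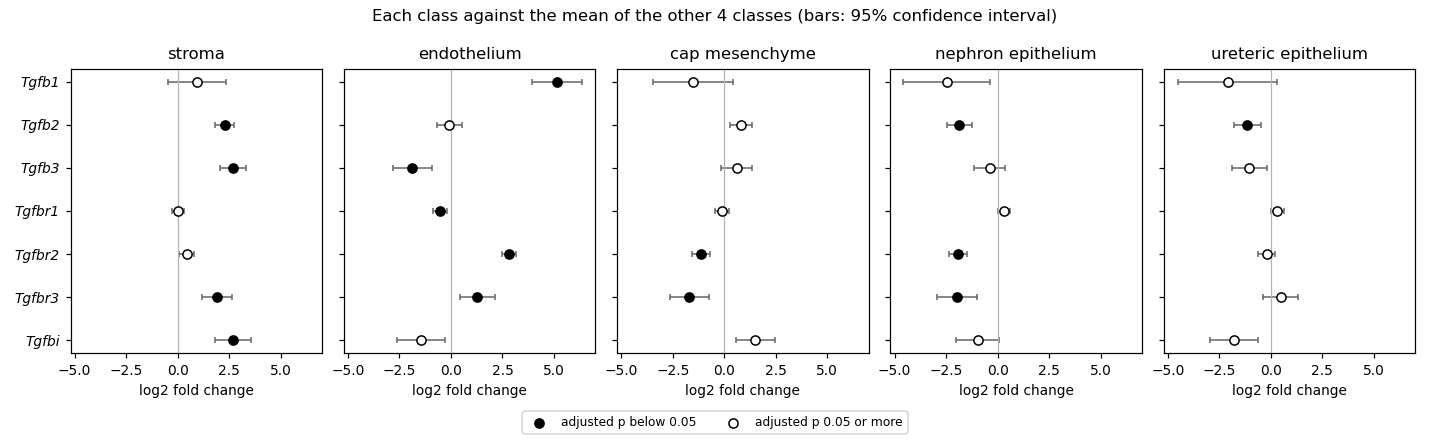
Log2 fold change of each gene (x axis) in 1 class against the mean of the other 4, 1 panel per class, from the edgeR fit over 15 class sums, with 95% confidence intervals. Filled points have an adjusted p below 0.05, and they lie right of 0 for 4 genes in stroma and 3 in endothelium, and left of 0 for 2 in endothelium, 2 in cap mesenchyme, 3 in nephron epithelium and 1 in ureteric epithelium.

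By class, 4 of the 7 genes were called higher in stroma (Tgfb2, Tgfb3, Tgfbr3 and Tgfbi) and none lower, and 7.93% of all genes were called higher and 7.88% lower. In endothelium 3 were called higher (Tgfb1, Tgfbr2 and Tgfbr3) and 2 lower (Tgfb3 and Tgfbr1), and 12.5% and 9.72% of all genes were. In cap mesenchyme none was called higher and 2 lower (Tgfbr2 and Tgfbr3), beside 5.23% and 3.7% of all genes. In nephron epithelium none was called higher and 3 lower (Tgfb2, Tgfbr2 and Tgfbr3), beside 6.63% and 3.67%. In ureteric epithelium none was called higher and 1 lower (Tgfb2), beside 8.24% and 5.68%. The median log2 fold change of the 7 genes was 1.90 in stroma, -0.08 in endothelium, -0.11 in cap mesenchyme, -1.85 in nephron epithelium and -1.05 in ureteric epithelium, while that of all genes lay between -0.04 and 0.06.

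Stroma was then split into nephrogenic-zone stroma, the outer stroma next to the progenitors, marked by Foxd1 and Aldh1a2, and other stroma. Tgfb2 had 63.3 CPM in nephrogenic-zone and 39.3 CPM in other stroma of Drop-seq, 60.4 and 38.8 CPM in 10x, and 41.1 and 26.5 CPM in C1. Nephrogenic-zone stroma was thus higher in all 3 libraries, by 0.71 ± 0.283 on the log2 scale (unadjusted p = 0.0212, adjusted p = 0.314).

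Tgfb3 had 59.4 CPM in nephrogenic-zone and 26.1 CPM in other stroma of Drop-seq, 51.1 and 15.6 CPM in 10x, and 31.3 and 34.5 CPM in C1, so that C1 ran the other way (0.99 ± 0.422, adjusted p = 0.346). Tgfbi had 442 CPM in nephrogenic-zone and 260 CPM in other stroma of Drop-seq, 319 and 127 CPM in 10x, and 239 and 193 CPM in C1 (0.93 ± 0.533, adjusted p = 0.526). Without C1 the Tgfbi difference was 1.06 (adjusted p = 0.0091). The 4 other genes differed by -1.15 for Tgfb1, -0.31 for Tgfbr1, -0.45 for Tgfbr2 and -0.05 for Tgfbr3, with adjusted p from 0.465 to 0.983. None of the 7 was called in edgeR or DESeq2, and 2 had an unadjusted p below 0.05 in edgeR. Of all 9351 genes tested, 0.0642% were called higher and 0.0642% lower.

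**Figure D4:**
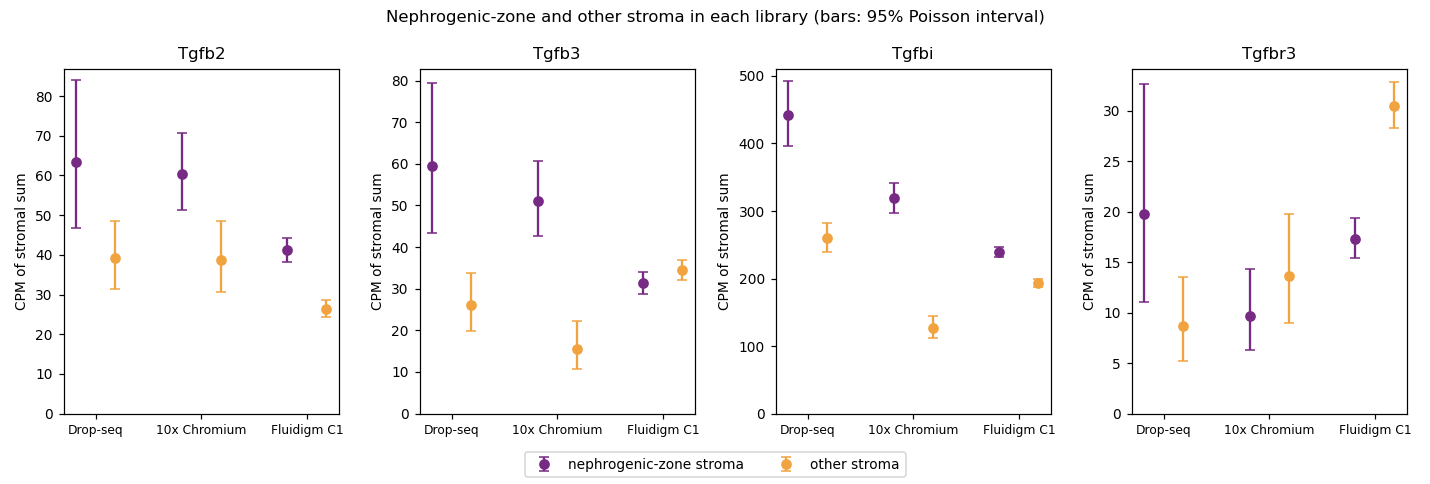
Level of Tgfb2, Tgfb3, Tgfbi and Tgfbr3 in CPM (y axis, from 0) in nephrogenic-zone stroma (left point of each pair) and other stroma (right point) in each library (x axis), with 95% Poisson intervals. Tgfb2 and Tgfbi are higher in nephrogenic-zone stroma in all 3 libraries, and Tgfb3 in Drop-seq and 10x only.

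The zones are sums of clusters, whose values are given here as a description. In 10x, Tgfbi ran from 32.1 CPM in a cluster of 55 cells led by Mgp, Cxcl13 and Ccl11 to 404 CPM in a nephrogenic-zone cluster of 178 cells led by Igfbp6, Mfap5 and Dlk1. That same cluster had the highest stromal Tgfb2 and Tgfb3 of 10x, at 95.9 and 71.0 CPM. In Drop-seq the nephrogenic-zone cluster of 136 cells, led by Aldh1a2 and C1qtnf2, had the highest of all 3 genes, at 442 CPM for Tgfbi, 63.3 CPM for Tgfb2 and 59.4 CPM for Tgfb3. In C1 the highest stromal Tgfb2 and Tgfb3, 42.8 and 54.8 CPM, lay in a cluster of 63 cells of other stroma led by Cxcl13 and Angpt2. A 10x cluster of 88 cells led by Akr1b7 and Cygb, which took no zone, had 27.1 CPM of Tgfb2, 5.17 CPM of Tgfb3 and 138 CPM of Tgfbi.

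Other genes of the pathway were taken from 4 lists with 55 genes in all. In stroma, 10 of 14 tested genes for latency, activation and matrix binding of the ligands rose and 1 fell, with a median of 2.01 against -0.04 over all genes, of which 7.93% rose and 7.88% fell. Among those that rose were the small matrix proteoglycans Dcn (4.47 ± 0.361, adjusted p = 9.00e-05) and Bgn (3.47 ± 0.430, 7.13e-04), which bind TGF-beta, and Lrrc32 (2.89 ± 0.542, 0.00222), which holds latent TGF-beta at the cell surface. Itgb6, a subunit of an epithelial integrin that releases the ligand, fell (-3.67 ± 0.595, adjusted p = 6.56e-04). Of 14 tested response genes 12 rose in stroma and none fell, with a median of 2.67. They were led by the collagen gene Col1a1 (4.22 ± 0.393, adjusted p = 2.15e-04), the smooth muscle genes Tagln (4.06 ± 0.330, 6.76e-06) and Acta2 (3.97 ± 0.516, 0.00116), and the matrix gene Postn (3.51 ± 0.218, 1.90e-06), all of which stromal cells also use apart from this signal.

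Of 12 receptor partners and signal transducers 1 rose in stroma, a share near the 7.93% of all genes, the type I receptor Acvrl1 (1.77 ± 0.393, adjusted p = 0.00598). Without Drop-seq its adjusted p was 0.062 and without 10x 0.0892. In endothelium Acvrl1 stood higher still, at 4.88 ± 0.380 above the mean of the other classes. Of 12 inhibitors 2 rose in stroma, Pmepa1 (1.39 ± 0.170, adjusted p = 7.63e-05), a SMAD-binding feedback inhibitor, and the SMAD co-repressor Ski (0.59 ± 0.160, 0.0203), and 1 fell, Tgif1 (-0.59 ± 0.122, 0.00371). For Ski and Tgif1 the adjusted p without Drop-seq was 0.0563 and 0.0795, and without 10x 0.0898 and 0.0831, and for Ski without C1 it was 0.0823.

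In endothelium, where 12.5% of all genes rose and 9.72% fell, 3 of the 12 receptor partners and signal transducers rose and none fell. They were Eng (5.45 ± 0.179, adjusted p = 1.56e-11), an endothelial co-receptor, Acvrl1 (4.88 ± 0.380, 2.66e-07), the endothelial type I receptor, and Fkbp1a (1.45 ± 0.111, 3.36e-07), which binds type I receptors. All 3 calls held without any 1 library. Of 12 inhibitors 3 rose and 2 fell, led by Cd109 (5.10 ± 0.363, adjusted p = 1.33e-07), a membrane protein that binds TGF-beta. Of 14 response genes 1 rose and 5 fell, led by Tagln (-2.60 ± 0.530, adjusted p = 0.00263). Of 14 latency and matrix genes 1 rose, Lrrc32 (1.87 ± 0.616, adjusted p = 0.0403), which had also risen in stroma, and 1 fell, Itgav (-0.87 ± 0.231, 0.0132). The list medians in endothelium were -0.00 for partners, 0.13 for inhibitors, -0.58 for response genes and -0.69 for latency and matrix genes.

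In nephron epithelium, where 6.63% of all genes rose and 3.67% fell, 2 of 14 latency and matrix genes rose and 3 fell. Itgb6 rose most (4.58 ± 0.345, adjusted p = 1.93e-06), and Itgb8, another integrin subunit (3.39 ± 0.965, 0.0343), was not called without Drop-seq, 10x or C1, at adjusted p of 0.137, 0.094 and 0.178. Of the other 3 lists no gene rose and 3 of 12 partners, 1 of 12 inhibitors and 2 of 14 response genes fell there. In cap mesenchyme, where 5.23% of all genes rose and 3.7% fell, no gene of the 4 lists rose and 6 fell, of which Eng (-1.93 ± 0.282, adjusted p = 5.80e-04) and Tpm1 (-0.89 ± 0.129, 5.69e-04) had the lowest adjusted p. Without Drop-seq these were 0.0552 and 0.0641, and for Eng without 10x 0.0525.

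In ureteric epithelium, where 8.24% of all genes rose and 5.68% fell, 1 of 14 latency and matrix genes rose, Itgb6 (1.41 ± 0.437, adjusted p = 0.0406). It was not called without Drop-seq (0.324) or 10x (0.171). Cd109 fell (-5.31 ± 0.787, adjusted p = 2.63e-04) and Tgif1 rose (0.73 ± 0.115, 4.12e-04). Of 12 partners 2 fell, and of 14 response genes 4 rose and 3 fell. In nephrogenic-zone against other stroma 1 inhibitor, Bambi (-2.70 ± 0.429, adjusted p = 0.0239), and 1 response gene, Tagln (-3.84 ± 0.621, 0.0247), fell. Without Drop-seq the adjusted p was 0.379 for Bambi and 0.39 for Tagln, and for Bambi without C1 it was 0.22.

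The genes whose pattern over the 15 class sums was most like that of each member were picked by Pearson's r of log2(CPM + 1) after centring each library, among 6897 or 6898 tested genes with a mean of 10 CPM or more. Variable and marker genes used to cluster or name cells were not among the candidates, so many genes that differ by class could not be picked. The class sums of a library share cells' preparation and depth, so r is a description. For Tgfb1 these were Rwdd1 (r = 0.975), Arhgdia (0.961) and Timm10b (0.948), for Tgfb2 Dennd2a (0.950), Lysmd2 (0.946) and S1pr2 (0.937), and for Tgfb3 Nsg1 (0.930), Tagln (0.921) and Neto2 (0.913). For Tgfbr1 they were Src (0.903), Kank1 (0.895) and 5730559C18Rik (0.894), and for Tgfbr2 Slc44a2 (0.964), Iqsec1 (0.957) and Dock6 (0.956). For Tgfbr3 they were Rarg (0.947), Tmed3 (0.939) and Mdfic (0.938), and for Tgfbi the matrix gene Tnc (0.980), 6030408B16Rik (0.967) and Zcchc3 (0.948). Among the 7 genes, r was 0.890 between Tgfb3 and Tgfbi, 0.810 between Tgfb2 and Tgfbi, 0.811 between Tgfb1 and Tgfbr2, and -0.815 between Tgfb1 and Tgfbr1.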

How the data were processed

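The data were 3 single-cell libraries, 1 per platform. The raw count tables were used as deposited: the authors counted UMIs (Drop-seq, 10x) or reads (C1) per gene and cell. Bowtie2 2.2.7, Cell Ranger 1.3.0 and build mm10 appear in the submitters' processing notes, without strand handling. C1 reads carry no molecular identifiers, so copies of 1 molecule count as separate reads. The Poisson intervals of C1 are therefore too narrow and do not fully cover counting error.

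Cells with under 500 genes or over 20% mitochondrial counts were removed (36 and 0 in Drop-seq, 43 and 105 in 10x, none in C1, whose table lists no mitochondrial gene). Scrublet's calls were removed in 10x (17) and C1 (11), while in Drop-seq it marked 0.255% of cells, was taken to have failed, and no cell was removed. Total counts in kept cells were 17751487, 17465306 and 171283962. Each library was clustered with scanpy 1.11.5 (2000 variable genes, 30 components, 15 neighbours, Leiden resolution 1), and a cluster was named from marker lists with at least 3 markers detected. Counts were summed per library and class. The 15 sums were fitted with edgeR 4.0.16 (TMM, filterByExpr, quasi-likelihood F test, library as block, 8 residual degrees of freedom), and 18 sums with stroma split into zones (10). Genes used for clustering or naming were left out before Benjamini-Hochberg adjustment. The script was tested on simulated data. The library numbers of the classes pair them, since the classes of a library come from the same preparation.

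With the library as a block, the p-values set each class difference against the disagreement of class differences between 3 libraries that differ in platform. The estimate of that disagreement for a gene also draws on the other genes. The level of each library is taken out, and whether the kidneys of the libraries were separate litters is unknown. The members and all lists were chosen with earlier results of these data known. Named genes of the 4 lists were up to 4 per list and comparison by fold among those called and alike in direction in 3 libraries. Alternatives were DESeq2 1.42.0, no low-count filter, no replicate block, resolutions 0.6 and 1.6, no doublet removal, each library left out, thinned cells, and each C1 name group alone. The deposited normalized tables were not used here.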

Additional observations from a re-analysis of the deposited data

Results flagged for a closer look

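Signal above that of every tested class of the same library was found in cells that entered no test. In 10x, 15 cells that took no class name, with Stmn2, Gja4, Gja5 and Sox17 among their leading genes, held Tgfb2 at 300.7 CPM (22 UMIs, in 5 of the 15 cells), against at most 47.5 CPM in a tested class. In C1, 14 immune cells held Tgfb1 at 12.0 CPM (31 reads), against at most 1.13 CPM in a tested class. The same 14 cells held Tgfbr1 at 118.5 CPM (306 reads), against at most 99.2 CPM. These values have no replicate check, and their cause was not tested.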

How the results depend on the processing

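No result changed direction in a called value. The calls of Tgfb2 and Tgfb3 in stroma, Tgfb1 and Tgfbr2 in endothelium, and Tgfb2 and Tgfbr2 in nephron epithelium held under all 9 alternatives run. Without the replicate block, genes called fell to 746 over all classes, 157 in stroma, 473 in endothelium, 47 in cap mesenchyme, 138 in nephron epithelium, 336 in ureteric epithelium and 0 between the stromal zones, and members called to 4 over all classes, 3 in stroma, 2 in endothelium, 0 in cap mesenchyme, 2 in nephron epithelium and 0 in ureteric epithelium. With 1 library left out, genes called ranged from 1257 to 4403 over all classes, 503 to 1729 in stroma, 752 to 2892 in endothelium, 95 to 1493 in cap mesenchyme, 316 to 1418 in nephron epithelium, 408 to 1775 in ureteric epithelium and 0 to 28 between zones. Members called ranged from 2 to 6 in endothelium, 0 to 5 in cap mesenchyme, 0 to 4 in ureteric epithelium and 0 to 1 between zones. Between zones, where 12 genes were called, DESeq2 called 83, resolution 1.6 gave 77 and no doublet removal 26. Members called in endothelium were 3 at resolution 1.6, and in ureteric epithelium 2 with DESeq2, 0 at resolution 0.6 and 2 without doublet removal. Apart from the settings whose construction drops samples or genes, the cause was not tested. CPM moved beyond its interval for 22 of 147 values at resolution 0.6, 20 of 154 at 1.6, 5 of 147 without doublet removal, and 25 and 33 of 42 in the C1 name groups HT and E14. Few counts limit the precision of Tgfb1 in Drop-seq (25 UMIs over all cells) and of Tgfbr3 in cap mesenchyme of Drop-seq and 10x (2 and 0 UMIs).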
